A study of Homo sapiens with 18 samples.

Results

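The genes described here are 34 members of the NRF2 pathway and of redox metabolism, chosen by symbol, among the 27968 gene symbols in the deposited tables. All 34 were found in every library. Total RNA was sequenced from 2 human cancer cell lines, A549 from lung and MDA-MB-231 from breast, after transfection with siRNAs against BLM, the Bloom syndrome RecQ helicase, and the stated aim was to profile genes under its control. A549 cells received a control siRNA, BLM siRNA1, BLM siRNA2 or BLM siRNA3, and MDA-MB-231 cells received a control siRNA or BLM siRNA1, with 3 libraries in each of the 6 groups. Both lines were grown in DMEM with 10% FBS. The labels name flat culture at about 80% confluence and 3D culture on day 4 without saying which library came from which. Whether libraries with the same treatment stem from different cultures is not stated either, and every p-value reflects a spread among libraries that may be technical. That siRNA1 is 1 reagent in both lines rests on its shared name.

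NRF2, encoded by NFE2L2, is a transcription factor that pairs with small MAF proteins at antioxidant response elements and switches on genes for glutathione synthesis, the thioredoxin system, NADPH supply, quinone and carbonyl reduction and iron storage. KEAP1 holds NRF2 in the cytoplasm and hands it to a ubiquitin ligase, and oxidants or electrophiles that modify KEAP1 let NRF2 accumulate. A549 is a known KEAP1-mutant line with constitutively active NRF2, whereas MDA-MB-231 is not known for such a mutation. The control of NRF2 is mainly at the level of its protein, which these libraries do not measure.

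The antioxidant response element has the core TGACNNNGC, and promoter stretches that hold it are shown for 5 members on which the results below turn. RefSeq promoters (GRCh38.p14, 250 bases before to 50 bases after the transcription start) were matched by symbol for 25 of the 34 members, and the core was searched on both strands. It was present in 9 of these 25 (36%), namely CBR1, EPHX1, GCLM, GPX2, KEAP1, ME1, PGD, PIR and TXNRD1, beside 4384 of 27305 genes with such a promoter (16.1%). The stretches lie at chr1:93909431-93909489 on the minus strand (GCLM, the regulatory subunit of glutathione synthesis), chr14:64942834-64942892 on the minus strand (GPX2, a glutathione peroxidase), chr12:104215655-104215713 and chr12:104286905-104286963 on the plus strand (2 starts of TXNRD1, thioredoxin reductase), chr6:83431155-83431213 on the minus strand (ME1, malic enzyme) and chr1:225825251-225825309 on the plus strand (EPHX1, epoxide hydrolase). They are written 5′ to 3′ along the gene, with the match in capitals. In GCLM, GPX2 and the second TXNRD1 start the core lies on the opposite strand, so that it reads GCNNNGTCA.
GCLM: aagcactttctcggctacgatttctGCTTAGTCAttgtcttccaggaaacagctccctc
GPX2: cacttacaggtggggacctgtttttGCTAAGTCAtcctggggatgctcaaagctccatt
TXNRD1, first start: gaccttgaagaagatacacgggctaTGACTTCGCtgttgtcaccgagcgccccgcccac
TXNRD1, second start: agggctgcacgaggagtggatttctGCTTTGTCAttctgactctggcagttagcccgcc
ME1: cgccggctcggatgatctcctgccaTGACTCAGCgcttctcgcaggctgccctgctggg
EPHX1: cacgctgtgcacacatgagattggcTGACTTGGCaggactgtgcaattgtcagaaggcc
The matches began 34 bases before the start in GCLM, 122 in GPX2, 99 and 102 in TXNRD1, 137 in ME1 and 78 in EPHX1. Further matches, not shown, lay 8 bases before the first start of TXNRD1 and 12 bases after the start of ME1. The ME1 match overlaps the AP-1 motif (TGACTCA or TGAGTCA), and the other 5 shown do not. A match is a description of these letters and was not tested for binding.

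Library totals ran from 30143047 to 40328208 expected counts. BLM mRNA was lower in every siRNA group, with log2 fold changes of -6.04 ± 0.10, -2.88 ± 0.08 and -3.59 ± 0.08 for siRNA1, siRNA2 and siRNA3 in A549 and -2.76 ± 0.07 in MDA-MB-231. One library stood apart, A549 siRNA3 replicate 3: around its group's average, log2 deviations had an SD of 0.351, beside 0.186 to 0.267 in the other 17, and they correlated with transcript length (Spearman -0.544 over 16918 genes, a description of that library). Members deviated there by a median of 0.205, so counts of members called with siRNA3 are given with and without it. For single members the siRNA3 value without it is given where the call against control changed. Other siRNA3 values include this library. As for markers, the A549 controls held all 6 epithelial markers at a TPM (length-adjusted transcript abundance) of 1 or more, with EPCAM at 2.69 TPM, while of the 7 lung and alveolar markers 5 were under 1 TPM (NKX2-1, SFTPB, SFTPC, SFTPA1 and NAPSA) and LPCAT1 (28.1 TPM) and ABCA3 (8.17 TPM) were above it. NKX2-1, a lung and thyroid factor, stood at 6.79, 6.15 and 7.35 TPM in the MDA-MB-231 controls. The controls of both lines held all 6 epithelial and all 6 mesenchymal markers at 1 TPM or more. EPCAM (18.4 TPM) and KRT19 (614 TPM, beside 61.1 TPM) were higher in MDA-MB-231 than in A549. CDH1, KRT7, KRT8 and KRT18 were lower there. Of the 5 luminal breast markers, ESR1 and PGR were near 0 in the MDA-MB-231 controls, while ERBB2 (26.5 TPM), FOXA1 (2.87 TPM) and GATA3 (1.98 TPM) were not. The 5 leukocyte markers summed to 4.33 to 5.89 TPM in the A549 controls and 11.4 to 12.5 TPM in those of MDA-MB-231, with PTPRC and CD3E at or near 0 in both lines, CD14 at 5.03 and 8.83 TPM, and LYZ at 0.01 and 3.08 TPM. The 4 endothelial markers summed to at most 0.06 TPM in the A549 controls and to 8.88 to 10.4 TPM in those of MDA-MB-231, mainly KDR (5.57 TPM) and PECAM1 (3.88 TPM). In such bulk libraries, fewer cells of a type and less RNA per cell cannot be told apart.

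In the control libraries, 31 of the 34 members were higher in A549 than in MDA-MB-231 and 1 was lower, at an adjusted p under 0.05 in edgeR's quasi-likelihood test, which is what "called" means throughout. Of all 16736 genes tested, 40.1% were called higher and 40.9% lower in this comparison. The median log2 difference was 2.54 over the members and -0.004 over all genes. Together the members took 4.47%, 4.40% and 4.52% of TPM in the A549 controls and 1.09%, 1.04% and 1.06% in those of MDA-MB-231. Each line stands for itself, and line, tissue of origin and culture history cannot be told apart. On TPM 31 members were higher and 2 lower, while 38.7% of all calls were higher (49.5% on counts) and the median of all genes was -0.18. Without MDA-MB-231 control replicate 3, 2 members were called lower.

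**Figure D1:**
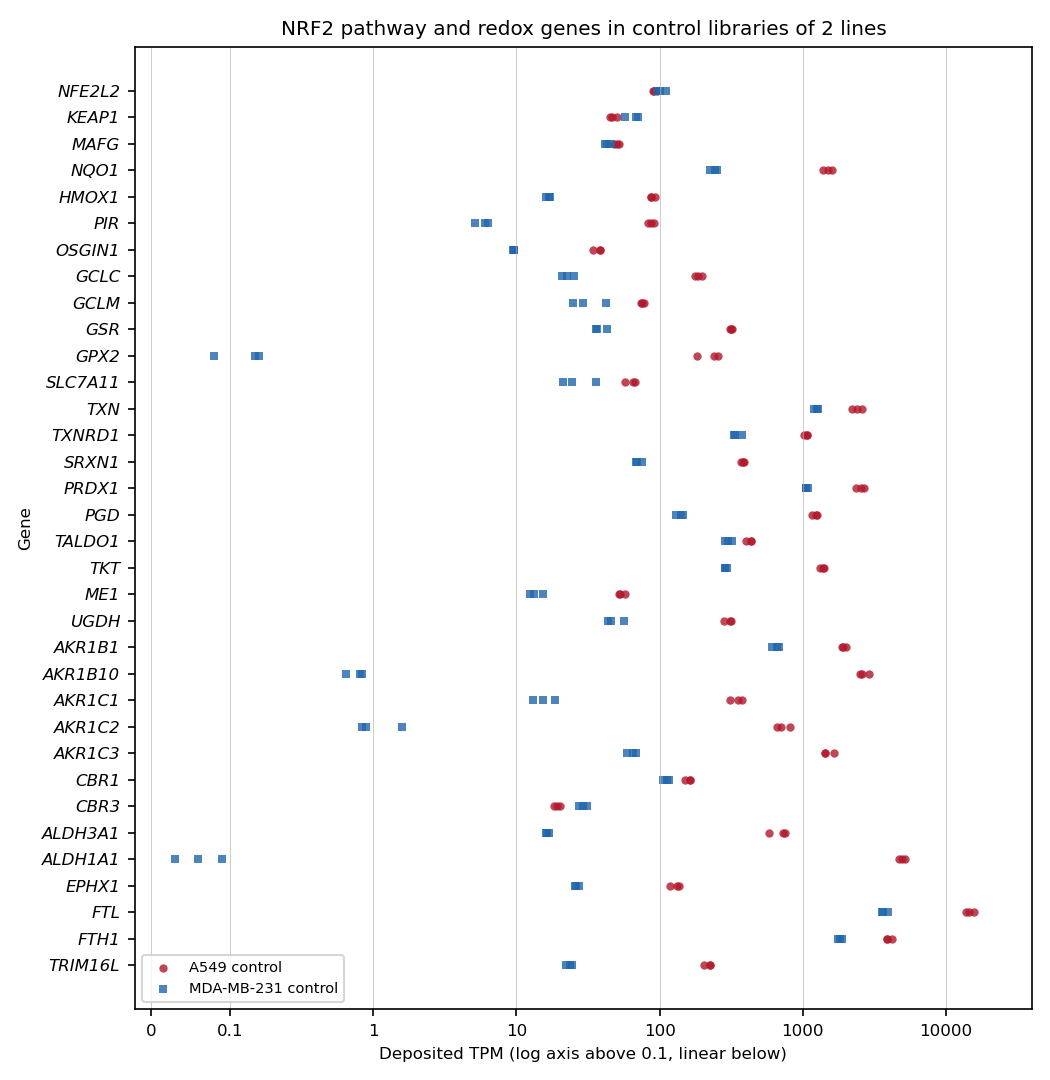
Deposited TPM of the 34 members in the 3 control libraries of A549 (red circles) and of MDA-MB-231 (blue squares), on an axis that is logarithmic above 0.1 and linear below; each point is 1 library. The A549 points lie to the right for nearly all members, while the points of NFE2L2 overlap and those of KEAP1 and CBR3 lie further left in A549.

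The 3 regulators differed little between the lines. NFE2L2 stood at 95.4, 91.3 and 90.2 TPM in the A549 controls and 95.2, 101 and 111 TPM in those of MDA-MB-231. These ranges overlapped, and the log2 difference of 0.12 ± 0.06 was not called (edgeR adjusted p 0.0791). Mean TPM was lower in A549 (92.3 against 102), the opposite sign to the difference on counts. NFE2L2 was called higher in A549 under 6 of the alternatives, for example at 0.233 without MDA-MB-231 control replicate 2 and at 0.152 without MDA-MB-231 control replicate 3. KEAP1 stood at 44.7, 46.7 and 50.5 TPM in A549 and 70.8, 68.2 and 57.8 TPM in MDA-MB-231. All 3 A549 values were below the others, but the log2 difference on counts, -0.21 ± 0.11, was not called (edgeR adjusted p 0.0782); it was called on TPM (-0.46) and, at -0.317, without MDA-MB-231 control replicate 3. MAFG, a small MAF partner of NRF2, was slightly higher in A549 (0.47 ± 0.08).

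The widest gaps were in enzymes that A549 expressed at a high level and MDA-MB-231 barely expressed. ALDH1A1, a retinaldehyde dehydrogenase, stood at 5198, 4972 and 4708 TPM in A549 and 0.06, 0.03 and 0.09 TPM in MDA-MB-231, where the whole signal was 2, 1 and 3 expected counts. AKR1B10, an aldo-keto reductase for retinal and lipid aldehydes, stood at 2888, 2613 and 2524 TPM against 0.80, 0.64 and 0.83 TPM (17, 13 and 19 expected counts). GPX2, a gastrointestinal glutathione peroxidase, stood at 257, 183 and 241 TPM against 0.15, 0.08 and 0.16 TPM (2, 1 and 3 expected counts). No fold is given for these 3, since counts so low do not fix one. AKR1C2, a hydroxysteroid dehydrogenase, stood at 816, 663 and 701 TPM against 0.89, 0.83 and 1.59 TPM, and its paralogue AKR1C3 at 1649.8, 1421 and 1424 TPM against 58.8, 64.8 and 68.2 TPM. RSEM shares reads among the near-identical AKR1C genes, and their counts were not whole in all 18 libraries, so the split between them is uncertain. With AKR1C1 to AKR1C4 summed the log2 difference was 5.79.

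Classical NRF2 targets were higher in A549 by smaller steps. NQO1, the quinone reductase often used as a readout of NRF2, stood at 1592, 1509 and 1391 TPM in A549 and 251, 225 and 246 TPM in MDA-MB-231, a log2 difference of 2.90 ± 0.07 (7.47-fold). GCLC, the catalytic subunit of glutamate-cysteine ligase, stood at 197, 186 and 177 against 22.4, 20.7 and 25.3 TPM (3.3 ± 0.08), and its partner GCLM at 78.0, 74.0 and 75.1 against 29.3, 25 and 42.2 TPM (1.51 ± 0.14). The pentose phosphate enzyme PGD was higher by 3.39 ± 0.06, and glutathione reductase, GSR, by 3.3 ± 0.06. Some members were abundant in both lines, among them thioredoxin, TXN (2392, 2604 and 2221 against 1199, 1268 and 1272 TPM), and peroxiredoxin 1, PRDX1 (2659.8, 2558 and 2356 against 1084, 1062 and 1052 TPM). CBR3, a carbonyl reductase, was the only member called lower in A549, at 18.3, 19.1 and 20 against 30.9, 27.4 and 29.1 TPM (-0.34 ± 0.10). That call was lost in a fit of all 18 libraries.

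By mean TPM, the order in the A549 controls began with the ferritin light chain FTL (13866, 14581 and 15853 TPM), ALDH1A1 and the ferritin heavy chain FTH1 (3849.8, 3884 and 4194 TPM). AKR1B10, PRDX1 and TXN came next with overlapping ranges, followed by AKR1B1. In the MDA-MB-231 controls the order began with FTL (3951, 3652 and 3602 TPM), FTH1 (1834, 1767 and 1869 TPM), TXN, PRDX1 and AKR1B1, and the ranges of these 5 did not overlap. At the low end of A549 were CBR3, OSGIN1, KEAP1 and MAFG.

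On counts, members called with BLM siRNA were mainly lower in A549 and mainly higher in MDA-MB-231. On TPM the siRNA1 calls in A549 were evenly split, at 13 higher and 13 lower. With siRNA1 in A549, 18 members were called lower and 11 higher, beside 32.8% and 39.0% of the 15898 genes tested, and the median log2 fold change was -0.28 over the members and 0.09 over all genes. With siRNA2, 17 were lower and 4 higher, beside 28.4% and 32.5% of genes (median -0.32 against 0.04). With siRNA3, 24 were lower and 2 higher, beside 30.4% and 30.9% of genes (median -0.56 against 0.00). These 3 comparisons share their control libraries and are not independent of each other. In MDA-MB-231, siRNA1 raised 18 of the 32 members tested and lowered 4, beside 27.5% and 27.8% of 15280 genes (median 0.35 against 0.01). GPX2 and ALDH1A1 were left out there by the filter on low counts. Without A549 siRNA3 replicate 3 the counts with siRNA3 were 28 lower and 3 higher. Without that library, whose spread and scaling enter all 3 A549 comparisons, siRNA2 gave 18 lower and 7 higher and siRNA1 gave 20 lower and 12 higher. Over each library left out in turn, genes called ranged over 10666 to 12194, 8747 to 10742 and 8864 to 10307 with siRNA1, siRNA2 and siRNA3. Shares of all genes without siRNA3 replicate 3 are not given here, so the member counts without it have no background beside them. Without A549 control replicate 3, siRNA3 gave 1 member higher.

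Markers of cell identity also differed between some of these groups, while the epithelial sum with siRNA2 and siRNA3 overlapped that of the A549 controls. The 6 epithelial markers summed to 8570 to 9210 TPM in the A549 controls, 17500 to 20000 with siRNA1, 8640 to 8960 with siRNA2 and 8390 to 9150 with siRNA3, and in MDA-MB-231 to 1990 to 2320 in the controls and 1640 to 1790 with siRNA1. All 6 were at 1 TPM or more in every group. KRT7, KRT8 and KRT18 carry most of this sum, and the less abundant markers differed from it. EPCAM averaged 2.69 TPM in the A549 controls, 11.4 with siRNA1, 66.2 with siRNA2 and 2.01 with siRNA3. CDH1 averaged 17.7 TPM in these controls, 68.5 with siRNA1, 72.7 with siRNA2 and 1.49 with siRNA3, and KRT19 averaged 61.1, 446, 337 and 111 TPM in the same order (values untested). The 6 mesenchymal markers summed to 1490 to 1660 TPM in the A549 controls, 2680 to 2820 with siRNA1, 2660 to 2730 with siRNA2 and 2940 to 3070 with siRNA3, and in MDA-MB-231 to 4290 to 4340 in the controls and 3010 to 3040 with siRNA1. These 6 did not move alike. FN1 averaged 110 TPM in the A549 controls, 817 with siRNA1, 627 with siRNA2 and 93.4 with siRNA3. VIM averaged 815, 940, 1169 and 1730 TPM in the same order, and ZEB1 13.4, 9.65, 7.3 and 15.1 TPM. In MDA-MB-231, VIM, CD44, AXL and CAV1 were lower with siRNA1. FN1 went from 255 to 309 TPM there and ZEB1 from 45.5 to 48.9 TPM (values untested). The 6 fibroblast markers summed to at most 16.3 TPM in any group. The part of these shifts in the members' results was not tested.

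The split of calls with siRNA1 in A549 moved with the scaling. On deposited TPM, 13 members were higher and 13 lower (50% of calls higher, beside 37.9% on counts), while 68.4% of all calls were higher (54.3% on counts) and the median of all genes moved from 0.09 to 0.23. The members' median on TPM was -0.03, below that of all genes. With siRNA2, TPM gave 8 members higher and 17 lower (32% against 19.0% higher), while 60.4% of all calls were higher (53.4% on counts). With siRNA3 it gave 2 and 27, while 48.4% of all calls were higher (50.4% on counts). In MDA-MB-231 it gave 19 and 5, and 60.0% of all calls were higher, beside 49.8% on counts.

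Summed, the members took 5.44%, 5.38% and 5.44% of TPM with siRNA1 in A549, above the controls at 4.40% to 4.52%. With siRNA2 they took 4.51%, 4.44% and 4.35%, which overlaps the controls, and with siRNA3 3.24%, 3.29% and 3.59%, below them. In MDA-MB-231 the share was 1.46%, 1.55% and 1.52% with siRNA1, above its controls at 1.04% to 1.09%. Abundant members weigh most in these sums, which do not describe each member. ALDH1A1 averaged 4959 TPM in the A549 controls, 10309 with siRNA1 and 1810 with siRNA3. With siRNA1 there, ALDH3A1 went from 687 to 3412 TPM and AKR1B10 from 2675 to 4390 TPM, while 18 members were called lower and 11 higher. In MDA-MB-231, FTL went from 3735 to 5429 TPM and FTH1 from 1823 to 3961 TPM.

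**Figure D2:**
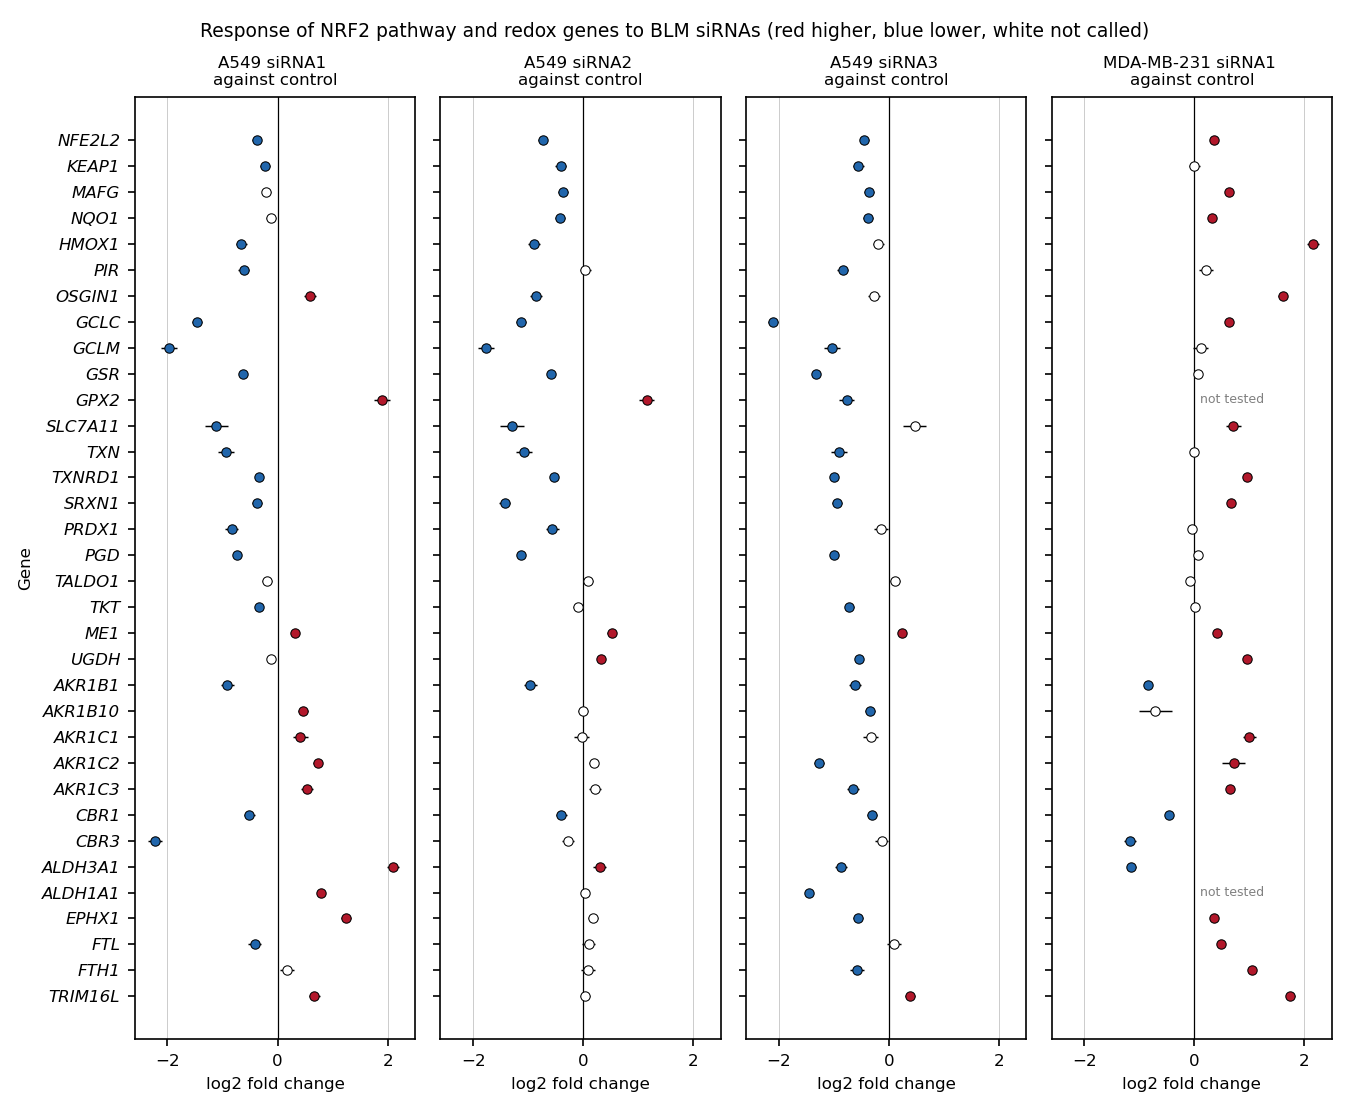
Log2 fold changes of the 34 members in each BLM siRNA group against the control of its line (points), with standard errors (bars); red is called higher, blue called lower and white not called. Blue points prevail in the 3 A549 panels (18, 17 and 24 members) and red points in the MDA-MB-231 panel (18 members).

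NFE2L2 itself fell with each siRNA in A549 and rose in MDA-MB-231. In CPM (counts relative to library size, scaled within each line) it stood at 140.1, 142 and 132 in the A549 controls, 102, 110.0 and 106 with siRNA1, 82.3, 81.2 and 84.9 with siRNA2 and 94.7, 98.7 and 111 with siRNA3. All 9 siRNA libraries lay below all 3 controls. The log2 fold changes were -0.38 ± 0.08, -0.74 ± 0.08 and -0.44 ± 0.08 (± standard error here and below; largest edgeR adjusted p 0.000456). On TPM the fall with siRNA1 was -0.123 and not called. In MDA-MB-231 the controls had 124, 134 and 138 CPM and the siRNA1 libraries 168, 163 and 172 CPM, without overlap (0.35 ± 0.05). The difference between the lines was itself called, at -0.68 ± 0.08 (edgeR adjusted p 4.69e-06).

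KEAP1 fell in A549, with siRNA1 on counts but not on TPM (0.023), and did not pass the test in MDA-MB-231. It stood at 58.4, 64.5 and 65.9 CPM in the A549 controls, 57.9, 45.3 and 57.9 with siRNA1, 49.9, 48.0 and 44.6 with siRNA2 and 41.6, 42.7 and 44.2 with siRNA3. With siRNA1, replicates 1 and 3 sat just under the lowest control and replicate 2 well below it, as did all libraries with siRNA2 and siRNA3. These were log2 fold changes of -0.23 ± 0.10, -0.41 ± 0.10 and -0.56 ± 0.10. The siRNA1 call was also lost under upper quartile scaling and without siRNA1 replicate 2 (-0.121), control replicate 2 (-0.214) or control replicate 3 (-0.197). In MDA-MB-231 the values were 82.2, 80.6 and 64.5 and 70.5, 83.6 and 73.2 CPM, which overlap. The test of the difference between the lines gave -0.18 ± 0.15, not called (edgeR adjusted p 0.313). MAFG gave -0.20 ± 0.09 (not called), -0.36 ± 0.09 and -0.36 ± 0.09 in A549 and rose by 0.63 ± 0.07 in MDA-MB-231. Its siRNA1 value was called lower in several alternatives, among them without siRNA1 replicate 3 (-0.268).

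Both subunits of the glutathione-making ligase fell with every siRNA in A549. GCLC and GCLM together form this enzyme, which sets the rate of glutathione production. GCLC stood at 389, 390.0 and 349.7 CPM in the A549 controls, 129, 153 and 126 with siRNA1, 171, 166 and 181 with siRNA2 and 91.9, 88.4 and 82.1 with siRNA3. Every siRNA library was below the controls, lowest with siRNA3. GCLC gave log2 fold changes of -1.47 ± 0.09, -1.12 ± 0.09 and -2.10 ± 0.09, the last a 4.3-fold fall (edgeR adjusted p 9.16e-10). GCLM stood at 207, 208 and 199 CPM in the controls, 46.1, 63.3 and 46.9 with siRNA1, 53.0, 55.9 and 71.7 with siRNA2 and 113, 88.6 and 98.0 with siRNA3. Its order differed, with siRNA3 the least lowered: the log2 fold changes were -1.97 ± 0.14, -1.77 ± 0.14 and -1.03 ± 0.14.

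In MDA-MB-231, GCLC had 39.5, 37.0 and 42.5 CPM in the controls and 61.5, 61.2 and 60.9 CPM with siRNA1, so it rose by 0.63 ± 0.06 without overlap. GCLM had 69.2, 60.0 and 95.0 CPM and 80.3, 82.7 and 80.5 CPM, which overlap, and did not pass the test (0.12 ± 0.14). Control replicate 3 decided this: without it GCLM was called higher at 0.315. Between the lines the siRNA1 effect on GCLC differed by -2.05 ± 0.11 and that on GCLM by -2.05 ± 0.20 (largest edgeR adjusted p 3.03e-07).

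**Figure D3:**
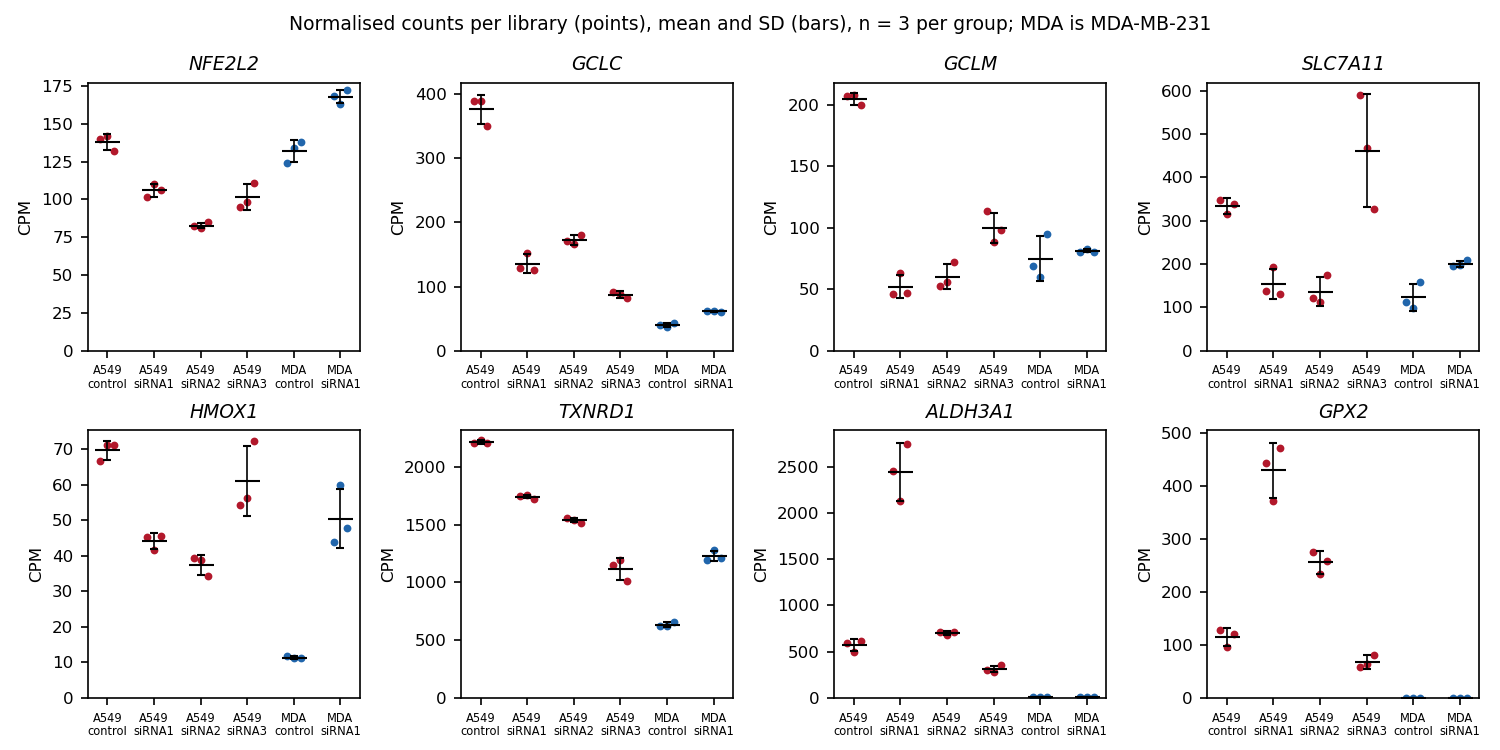
CPM of 8 members in each library (points), with the group mean and SD (bars, n = 3); A549 is red and MDA-MB-231 (MDA) blue, and each line was scaled by its own fit, so levels are to be compared within a line. GCLC, GCLM and TXNRD1 are lower in every A549 siRNA library than in the controls, HMOX1 is higher with siRNA1 in MDA-MB-231, and ALDH3A1 and GPX2 are high with siRNA1 in A549 but not in MDA-MB-231.

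SLC7A11, the cystine importer that feeds glutathione synthesis, separated siRNA3 from the other two. It stood at 348, 314 and 338 CPM in the A549 controls, 137, 194 and 131 with siRNA1, 122, 113 and 174 with siRNA2 and 589, 468 and 327 with siRNA3. Libraries with siRNA1 and siRNA2 lay below all controls, while of those with siRNA3, replicates 1 and 2 lay above the controls and replicate 3 within their range. SLC7A11 gave log2 fold changes of -1.11 ± 0.21, -1.29 ± 0.21 and, not called, 0.47 ± 0.21 (edgeR adjusted p 0.0657). Without siRNA3 replicate 3 the last became 0.664 and was called. In MDA-MB-231 it had 112, 98.6 and 158 CPM in the controls and 194, 197 and 209 CPM with siRNA1, a rise of 0.71 ± 0.14 without overlap. The lines differed by -1.77 ± 0.21. RSEM gave SLC7A11 fractional counts in all 18 libraries.

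GSR, which returns oxidised glutathione to its reduced form, stood at 515, 537 and 529.9 CPM in the A549 controls, 343, 344 and 338 with siRNA1, 354, 365 and 338 with siRNA2 and 201, 202 and 230.1 with siRNA3. The groups did not overlap the controls, and the log2 fold changes were -0.63 ± 0.07, -0.58 ± 0.07 and -1.32 ± 0.07. In MDA-MB-231 GSR gave 0.06 ± 0.06 and was not called. GPX2 went the other way with siRNA1 and siRNA2. It stood at 128, 96.7 and 120.3 CPM in the A549 controls, 444, 372 and 472 with siRNA1, 276, 233 and 258 with siRNA2 and 57.9, 63.2 and 81.9 with siRNA3. The first and second siRNA groups lay above every control and the third below, with log2 fold changes of 1.90 ± 0.14, 1.15 ± 0.14 and -0.77 ± 0.14 (largest edgeR adjusted p 0.000344). In MDA-MB-231 it had 1 to 3 expected counts per control library and 5 to 9 with siRNA1, too few for the filter. Of the 5 glutathione members, siRNA1 and siRNA2 each lowered 4 and raised 1 in A549, and siRNA3 lowered 4. Of all genes, 32.8%, 28.4% and 30.4% were called lower with siRNA1, siRNA2 and siRNA3, and 39.0%, 32.5% and 30.9% higher.

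Members of the thioredoxin system were called lower in A549: all 4 with siRNA1 and with siRNA2 and 3 of them with siRNA3, while 2 rose in MDA-MB-231. Of all genes, 32.8%, 28.4% and 30.4% were called lower with siRNA1, siRNA2 and siRNA3 in A549, and 27.5% higher in MDA-MB-231. TXN, a small dithiol reductase, stood at 901, 1042 and 835 CPM in the A549 controls, 495, 477 and 470.2 with siRNA1, 447, 446 and 429 with siRNA2 and 408, 428 and 652 with siRNA3. No siRNA library reached the lowest control, although siRNA3 replicate 3 was above the rest. TXN gave log2 fold changes of -0.95 ± 0.15, -1.07 ± 0.15 and -0.90 ± 0.15. TXNRD1, the selenoenzyme that reduces thioredoxin, stood at 2206, 2235 and 2203 CPM in the controls, 1748, 1755 and 1724 with siRNA1, 1556, 1543 and 1517 with siRNA2 and 1146, 1193 and 1008 with siRNA3. The 4 groups did not overlap, and the log2 fold changes were -0.35 ± 0.07, -0.53 ± 0.07 and -0.99 ± 0.07. On TPM the siRNA1 value was -0.089 and not called. In MDA-MB-231 TXNRD1 had 624, 622 and 657 CPM in the controls and 1194, 1277 and 1214 CPM with siRNA1. It rose by 0.95 ± 0.04 (1.94-fold, edgeR adjusted p 1.59e-07), and the lines differed by -1.26 ± 0.06.

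SRXN1, sulfiredoxin, which repairs overoxidised peroxiredoxins, fell most with siRNA2. It stood at 533, 558 and 505 CPM in the A549 controls, 412, 385 and 430.4 with siRNA1, 205, 207 and 181 with siRNA2 and 251, 270.1 and 311 with siRNA3. All siRNA libraries were below all controls, with log2 fold changes of -0.38 ± 0.09, -1.43 ± 0.09 and -0.94 ± 0.09. The siRNA1 call was lost on TPM with the smaller added value of 0.1. In MDA-MB-231 SRXN1 rose by 0.66 ± 0.06. PRDX1, an abundant peroxidase, fell with siRNA1 (-0.84 ± 0.12) and siRNA2 (-0.56 ± 0.12). With siRNA3 it gave -0.14 ± 0.12, not called, and without siRNA3 replicate 3 it was called at -0.319. In MDA-MB-231 neither TXN (-0.0049 ± 0.05) nor PRDX1 (-0.03 ± 0.05) passed the test.

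Members that supply NADPH or handle sugars were mixed. PGD, which makes NADPH in the oxidative pentose phosphate pathway, stood at 1490.3, 1444 and 1447 CPM in the A549 controls, 886, 849 and 901 with siRNA1, 685, 652 and 669 with siRNA2 and 687, 731 and 780.4 with siRNA3. Every siRNA library was far below the controls, with log2 fold changes of -0.73 ± 0.07, -1.13 ± 0.07 and -0.99 ± 0.07. In MDA-MB-231 PGD had 148, 155 and 132 CPM in the controls and 147, 154 and 152 CPM with siRNA1, which overlap (0.06 ± 0.06, not called). TKT, transketolase, fell with siRNA1 (-0.34 ± 0.08; -0.094 and not called on TPM) and siRNA3 (-0.72 ± 0.08), and gave -0.10 ± 0.08 with siRNA2, not called. TALDO1, transaldolase, was not called with any siRNA in either line, with values between -0.19 and 0.12. It was called lower with siRNA1 in A549 under 6 alternatives, among them -0.239 with DESeq2 and -0.191 without siRNA3 replicate 3, and higher with siRNA2 on TPM (0.171). In MDA-MB-231 it was called lower, at -0.145, without control replicate 3.

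ME1, the cytosolic malic enzyme that also yields NADPH, rose in both lines. It stood at 104, 101 and 95.1 CPM in the A549 controls, 122, 136 and 117 with siRNA1, 136, 147 and 147 with siRNA2 and 118, 114 and 124 with siRNA3. All siRNA libraries lay above the controls, by log2 fold changes of 0.32 ± 0.08, 0.51 ± 0.08 and 0.24 ± 0.08. The siRNA3 call was lost without control replicate 3 (0.203). In MDA-MB-231 it had 21.5, 20.5 and 23.7 CPM in the controls and 27.7, 29.5 and 30.2 CPM with siRNA1 (0.41 ± 0.07), and the difference between the lines was -0.05 ± 0.10, not called. UGDH, which makes UDP-glucuronate, stood at 517, 491 and 509 CPM in the A549 controls, 454, 492 and 444 with siRNA1, 612, 617 and 674 with siRNA2 and 355, 343 and 349 with siRNA3. It was above the controls with siRNA2 (0.33 ± 0.07), below them with siRNA3 (-0.54 ± 0.07), and overlapped them with siRNA1 (-0.13 ± 0.07, not called). In MDA-MB-231 UGDH rose by 0.95 ± 0.07.

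HMOX1, haem oxygenase 1, had the highest fold change of the members in MDA-MB-231 and fell with siRNA1 and siRNA2 in A549. It stood at 66.7, 71.1 and 71.0 CPM in the A549 controls, 45.2, 41.5 and 45.7 with siRNA1, 39.4, 38.8 and 34.2 with siRNA2 and 54.4, 56.3 and 72.2 with siRNA3. Only the siRNA3 libraries reached the control range, through replicate 3. The log2 fold changes were -0.66 ± 0.10, -0.89 ± 0.10 and, not called, -0.19 ± 0.10; without siRNA3 replicate 3 the last was -0.331 and called. In MDA-MB-231 HMOX1 had 11.7, 11.2 and 11.1 CPM in the controls and 43.7, 59.9 and 47.7 CPM with siRNA1. All 3 siRNA1 libraries were far above the controls, a 4.45-fold rise (2.15 ± 0.11, edgeR adjusted p 3.7e-07). The effect differed between the lines by -2.77 ± 0.14.

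OSGIN1, an oxidative stress response gene, rose with siRNA1 in both lines. It stood at 32.9, 38.9 and 36.6 CPM in the A549 controls, 57.6, 45.2 and 60.4 with siRNA1, 20.4, 21.3 and 18.2 with siRNA2 and 31.7, 27.8 and 30.4 with siRNA3. Libraries with siRNA1 were above the controls (0.59 ± 0.11) and those with siRNA2 below (-0.86 ± 0.11). With siRNA3 the value was -0.27 ± 0.11, just short of a call (edgeR adjusted p 0.0511), and it was called at -0.335 without control replicate 1. In MDA-MB-231 OSGIN1 had 8.12, 8.19 and 7.95 CPM in the controls and 23.3, 26.8 and 23.6 CPM with siRNA1, a rise of 1.60 ± 0.08. NQO1 stood at 2080.4, 2088 and 1818 CPM in the A549 controls, 1894, 1810.2 and 1823 with siRNA1, 1521, 1491 and 1450.3 with siRNA2 and 1371, 1451 and 1791 with siRNA3. It overlapped the controls with siRNA1 (-0.12 ± 0.09, not called, and 0.141 on TPM) and fell with siRNA2 (-0.42 ± 0.09) and siRNA3 (-0.38 ± 0.09). In MDA-MB-231 NQO1 rose by 0.32 ± 0.06. PIR, pirin, fell with siRNA1 (-0.62 ± 0.10) and siRNA3 (-0.84 ± 0.10), gave 0.04 ± 0.10 with siRNA2 and was not called in MDA-MB-231 (0.22 ± 0.13).

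The aldo-keto reductases AKR1C1, AKR1C2, AKR1C3 and AKR1B10 rose with siRNA1 in A549, the reverse of the glutathione ligase. AKR1C2 stood at 1291, 1124 and 1115 CPM in the A549 controls, 2002, 1849 and 1985 with siRNA1, 1411, 1263 and 1354 with siRNA2 and 462, 463 and 537 with siRNA3. It lay above all controls with siRNA1 and below them with siRNA3, with log2 fold changes of 0.73 ± 0.09 and -1.27 ± 0.09, and overlapped them with siRNA2 (0.19 ± 0.09, not called). AKR1C3 gave 0.53 ± 0.11, 0.22 ± 0.11 (not called) and -0.65 ± 0.11 in the same order. AKR1C1 gave 0.42 ± 0.14, -0.03 ± 0.14 (not called) and -0.33 ± 0.14 (not called). The siRNA1 call of AKR1C1 was lost without siRNA1 replicate 1 (0.355), siRNA1 replicate 3 (0.350) or control replicate 2 (0.366). Without siRNA3 replicate 3, AKR1C1 was called lower with siRNA3 (-0.490). With AKR1C1 to AKR1C4 summed, the family gave 0.62 with siRNA1, 0.18 with siRNA2 and -0.89 with siRNA3. In MDA-MB-231, where their counts were far lower, AKR1C1 rose by 1.00 ± 0.12, AKR1C3 by 0.65 ± 0.07 and AKR1C2 by 0.71 ± 0.21. The AKR1C2 call there was lost without siRNA1 replicate 3 (0.649), control replicate 1 (0.634) or control replicate 2 (0.551).

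AKR1B10 stood at 2233, 2141 and 1949.8 CPM in the A549 controls, 2932, 2774 and 2995 with siRNA1, 2169.6, 2104 and 2073 with siRNA2 and 1466, 1598 and 1906 with siRNA3. It was raised with siRNA1 (0.46 ± 0.09), overlapped the controls with siRNA2 and was lowered with siRNA3 (-0.35 ± 0.09). AKR1B1, aldose reductase, fell in both lines. It stood at 1344, 1399 and 1414 CPM in the A549 controls, 789.6, 623 and 793 with siRNA1, 754, 730.5 and 651 with siRNA2 and 798, 849.8 and 1069 with siRNA3. All 9 were below the controls, with log2 fold changes of -0.91 ± 0.12, -0.96 ± 0.12 and -0.61 ± 0.12. In MDA-MB-231 it had 431, 388 and 401 CPM in the controls and 223, 219.9 and 237 CPM with siRNA1 (-0.84 ± 0.05), and the difference between the lines of -0.03 ± 0.11 was not called.

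CBR3 fell with siRNA1 in both lines. It stood at 9.34, 10.3 and 10.2 CPM in the A549 controls, 2.31, 1.81 and 2.21 with siRNA1, 8.31, 8.24 and 8.14 with siRNA2 and 8.31, 8.38 and 10.7 with siRNA3. The siRNA1 libraries stood apart from all other A549 libraries, with a 4.71-fold fall (-2.23 ± 0.13, edgeR adjusted p 3.01e-09). The siRNA2 and siRNA3 values, -0.27 ± 0.11 and -0.13 ± 0.11, were not called (edgeR adjusted p 0.0501 and 0.342); without siRNA3 replicate 3 they were called at -0.275 and -0.255. In MDA-MB-231 CBR3 had 13.9, 12.5 and 12.9 CPM in the controls and 5.62, 5.18 and 6.69 CPM with siRNA1 (-1.17 ± 0.11). CBR1, a related carbonyl reductase, fell with each siRNA in A549 (-0.51 ± 0.10, -0.39 ± 0.10 and -0.30 ± 0.10) and had 62.3, 59.6 and 62.7 CPM in the MDA-MB-231 controls against 44.3, 44.0 and 45.6 CPM with siRNA1 (-0.46 ± 0.05). The siRNA3 call of CBR1 was lost without siRNA3 replicate 1 (-0.267), siRNA3 replicate 2 (-0.203) or control replicate 2 (-0.260).

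The aldehyde dehydrogenases and EPHX1 rose with siRNA1 and fell with siRNA3 in A549. ALDH3A1, which oxidises aromatic and lipid aldehydes, stood at 598, 499 and 619 CPM in the A549 controls, 2457, 2128 and 2749.8 with siRNA1, 714, 680.0 and 713 with siRNA2 and 307, 285 and 352 with siRNA3. The groups did not overlap, and the log2 fold changes were 2.1 ± 0.11, 0.30 ± 0.11 and -0.86 ± 0.11. The siRNA2 call was lost in 7 alternatives, among them without siRNA2 replicate 1 (0.283), siRNA2 replicate 2 (0.319), siRNA2 replicate 3 (0.285) or control replicate 2 (0.205). In MDA-MB-231 ALDH3A1 had 12.5, 12.1 and 11.5 CPM in the controls and 5.49, 5.64 and 5.22 CPM with siRNA1, a fall without overlap (-1.14 ± 0.09). It was the only member raised by siRNA1 in A549 and lowered by it in MDA-MB-231. Of 14300 genes tested in both lines, 6.52% had this pattern. The siRNA1 effect on ALDH3A1 differed between the lines by 3.28 ± 0.15.

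ALDH1A1 stood at 6207, 6286 and 5619 CPM in the A549 controls, 10260.5, 11147 and 10055 with siRNA1, 6055, 5959.9 and 6431 with siRNA2 and 2100.3, 2352 and 2189 with siRNA3. It rose with siRNA1 (0.80 ± 0.07), overlapped the controls with siRNA2 (0.03 ± 0.07, not called) and fell with siRNA3 (-1.45 ± 0.07). In MDA-MB-231 it had 1 to 3 expected counts per library in both groups. EPHX1 stood at 109.9, 105 and 114 CPM in the A549 controls, 268, 231 and 277 with siRNA1, 131, 122 and 119.6 with siRNA2 and 70.9, 70.2 and 82.5 with siRNA3. It rose with siRNA1 (1.24 ± 0.09) and fell with siRNA3 (-0.56 ± 0.09), while siRNA2 gave 0.18 ± 0.09, not called. In MDA-MB-231 EPHX1 had 19.3, 20.4 and 18.2 CPM in the controls and 25.7, 24.7 and 23.7 CPM with siRNA1 (0.36 ± 0.07).

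The ferritin genes, whose chains form the iron storage shell, rose in MDA-MB-231. FTH1 had 929.6, 909.7 and 929 CPM in the MDA-MB-231 controls and 1836, 1946 and 1957 CPM with siRNA1, a rise of 1.05 ± 0.04. FTL rose by 0.48 ± 0.05. In A549, FTH1 stood at 2207, 2361 and 2401 CPM in the controls, 2656, 2571 and 2611 with siRNA1, 2497, 2582 and 2334 with siRNA2 and 1319, 1369.7 and 1991 with siRNA3. It gave 0.17 ± 0.12 (not called) and 0.09 ± 0.12 (not called) and fell with siRNA3 (-0.57 ± 0.12). On TPM the siRNA1 value was 0.423 and called higher, and without siRNA3 replicate 3 it was called at 0.168. FTL fell with siRNA1 (-0.42 ± 0.12, not called on TPM) and gave 0.10 ± 0.12 and 0.10 ± 0.12 with the others, not called. TRIM16L, a TRIM16-related gene whose counts were fractional in all 18 libraries, stood at 227, 222 and 227 CPM in the A549 controls, 383, 323 and 369 with siRNA1, 246, 231 and 215 with siRNA2 and 263, 289 and 329 with siRNA3. Libraries with siRNA1 and siRNA3 were above the controls (0.67 ± 0.09 and 0.38 ± 0.09) and those with siRNA2 overlapped them (0.04 ± 0.09, not called). In MDA-MB-231 TRIM16L had 23.1, 22.3 and 19.8 CPM in the controls and 66.9, 80.9 and 70.7 CPM with siRNA1, a rise of 1.74 ± 0.09. Summed with TRIM16 it gave 0.54, -0.10, 0.42 and 1.37 in the same order of comparisons.

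The siRNA1 effect was then compared directly between the lines, in 1 fit of their control and siRNA1 libraries with an interaction term. It was lower in A549 than in MDA-MB-231 for 22 members and higher for 3 (EPHX1, AKR1B10 and ALDH3A1), beside 27.0% and 30.8% of the 16736 genes tested. The median difference was -0.72 over the members and 0.07 over all genes. On TPM the counts were 20 and 6 (23.1% of members' calls higher, 12% on counts), while 63.2% of all calls were higher (53.3% on counts) and the median of all genes was 0.13. These 2 responses share no library, so their calls can be set side by side. Of the 32 members tested in both, 7 fell in A549 and rose in MDA-MB-231 (FTL, GCLC, HMOX1, NFE2L2, SLC7A11, SRXN1 and TXNRD1), a pattern found in 4.99% of 14300 genes tested in both. Another 7 rose in both (AKR1C1, AKR1C2, AKR1C3, EPHX1, ME1, OSGIN1 and TRIM16L; 15.1% of genes), and 3 fell in both (AKR1B1, CBR1 and CBR3; 16.1%). A further 8 fell in A549 and were not called in MDA-MB-231, among them GCLM, GSR, PGD and TXN (13.5% of genes). AKR1B10 in the interaction rests on 10 to 19 expected counts per MDA-MB-231 library. The AKR1C1 difference (-0.54 ± 0.17) was lost on TPM and, at -0.07, when the family was summed.

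**Figure D4:**
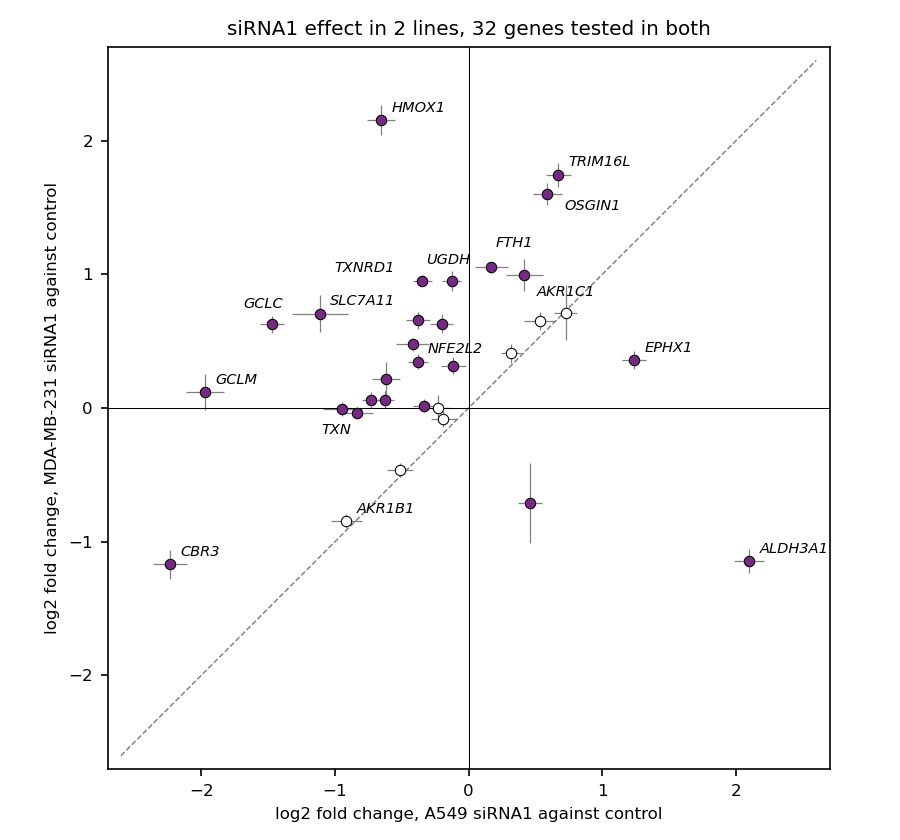
Log2 fold change with siRNA1 against control in A549 (horizontal) and in MDA-MB-231 (vertical) for the 32 members tested in both, with standard errors; filled points have a called difference between the lines, and the dashed line marks equal effects. Most filled points lie above the line, HMOX1 furthest at -0.66 and 2.15, and ALDH3A1 lies far below it at 2.1 and -1.14.

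The 3 siRNAs against BLM did not act alike on the members in A549. Between siRNA1 and siRNA2, 15 members were called higher with siRNA1 and 8 lower, beside 28.6% and 27.4% of genes. Between siRNA1 and siRNA3, 20 were higher with siRNA1 and 8 lower, beside 34.4% and 32.3%. Between siRNA2 and siRNA3, 15 were higher with siRNA2 and 9 lower, beside 30.1% and 28.9%. The first of these splits moved to 20 and 4 on TPM (83.3% higher, beside 65.2% on counts) and to 16 and 5 under upper quartile scaling (76.2% higher), with 5 lower also without siRNA2 replicate 2. Of all calls, TPM gave 65.5% higher with siRNA1 than with siRNA2 (51.1% on counts) and 69.4% higher than with siRNA3 (51.6% on counts). For ALDH3A1, siRNA1 exceeded siRNA2 by 1.80 ± 0.11 and siRNA3 by 2.96 ± 0.12. AKR1C2 was higher with siRNA1 than with siRNA3 by 2.00 ± 0.09, and CBR3 lower (-2.11 ± 0.13). SLC7A11 was lower than with siRNA3 both with siRNA1 (-1.58 ± 0.21) and with siRNA2 (-1.76 ± 0.21). For TXN the difference between siRNA1 and siRNA3 was -0.05 ± 0.14 and not called, and it turned to 0.259 on TPM and to 0.200 without siRNA3 replicate 3. BLM itself was at 1.19, 1.17 and 1.17 CPM with siRNA1, 10.3, 10.7 and 10.8 with siRNA2 and 6.42, 6.18 and 6.81 with siRNA3, and the part of the remaining BLM level in these differences was not tested.

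A pair of further lists places the members among other redox genes. Of 45 other NRF2 pathway genes (transporters, glutathione transferases, small MAF genes and others), 31 were higher and 12 lower in the A549 controls than in those of MDA-MB-231, with a median of 1.02. Of all genes tested, 40.1% were higher and 40.9% lower there. The efflux pump ABCC2 stood at 240.5, 201 and 225 TPM in A549 and 1.0, 0.79 and 1.09 TPM in MDA-MB-231. With siRNA1 in A549, 22 of 44 tested rose and 9 fell (median 0.27), beside 39.0% and 32.8% of all genes. With siRNA2 18 rose and 11 fell (0.13), beside 32.5% and 28.4%. With siRNA3 17 rose and 18 fell (0.07), beside 30.9% and 30.4%. In MDA-MB-231, 16 of 41 rose and 10 fell (0.10), beside 27.5% and 27.8% of all genes. The siRNA1 effect was called higher in A549 than in MDA-MB-231 for 15 of 45 and lower for 10. These are 33.3% and 22.2%, near the 30.8% and 27.0% of all genes.

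Among these genes NFE2L3, an NRF2 paralogue, fell with each siRNA in both lines. It stood at 45.2, 45.2 and 41.3 TPM in the A549 controls, 13.8, 16 and 12.8 with siRNA1, 15.4, 16.8 and 17.2 with siRNA2 and 16.1, 16 and 13.1 with siRNA3. Its log2 fold changes for siRNA1, siRNA2 and siRNA3 in A549 were -1.89 ± 0.09, -1.51 ± 0.08 and -1.54 ± 0.08, and siRNA1 in MDA-MB-231 gave -0.77 ± 0.05. ABCC3, an organic anion efflux pump, rose with siRNA1 in A549 (108, 88.8 and 112 TPM in the controls, 363, 354 and 395 with siRNA1) by 1.60 ± 0.10, and in MDA-MB-231 by 0.95 ± 0.06. CYP4F11, a fatty acid hydroxylase, fell with siRNA2 (-1.23 ± 0.09) and siRNA3 (-1.31 ± 0.09) in A549. The RAS-related GTPase RIT1 rose by 1.18 ± 0.08 with siRNA1 and 1.12 ± 0.08 with siRNA2 in A549, and by 1.13 ± 0.06 in MDA-MB-231.

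Of 42 other redox enzymes, 18 were higher and 19 lower in the A549 controls than in those of MDA-MB-231, a median of 0.14. These are 43.9% and 46.3% of the 41 tested, near the 40.1% and 40.9% of all genes. PRDX2, a peroxiredoxin, was nearly absent from A549 (0.44, 0.75 and 0.49 TPM) and abundant in MDA-MB-231 (325, 325 and 314 TPM), and so was TXNIP, a thioredoxin-binding protein (0.34, 0.33 and 0.54 against 290.4, 301 and 328 TPM). With siRNA1 in A549, 18 of 38 tested rose and 16 fell (median -0.006), beside 39.0% and 32.8% of all genes. With siRNA2 16 rose and 12 fell (0.17), beside 32.5% and 28.4%. With siRNA3 16 rose and 13 fell (0.09), beside 30.9% and 30.4%. In MDA-MB-231, 10 of 40 rose and 17 fell (-0.09), beside 27.5% and 27.8% of all genes. The sestrins SESN1 (2.53 ± 0.09) and SESN2 (2.84 ± 0.12), stress-inducible genes also known as p53 targets, rose with siRNA1 in A549. SESN1 also rose with siRNA2 there (1.84 ± 0.09), and SESN2 rose in MDA-MB-231 (2.51 ± 0.10). In the A549 controls and with siRNA1, siRNA2 and siRNA3, SESN1 averaged 7.57, 55.7, 29.9 and 15.2 TPM. SESN2 averaged 4.92, 42.0, 16.2 and 9.26 TPM in the same order. In MDA-MB-231, SESN1 averaged 4.24 TPM in the controls and 6.76 TPM with siRNA1. NQO2, a quinone reductase related to NQO1, stood at 86.9, 88.9 and 83 TPM in the A549 controls and 16.8, 17.8 and 18.6 TPM with siRNA1. The log2 fold change of NQO2 was -2.50 ± 0.11 with siRNA1 and -1.45 ± 0.10 with siRNA3. With siRNA2 it averaged 51.3 TPM, beside 86.3 TPM in these controls. In MDA-MB-231 it averaged 68.5 TPM in the controls and 40.8 TPM with siRNA1. CHAC1, which degrades glutathione, fell with siRNA3 in A549 (6.08, 8.22 and 7.06 against 0.32, 0.60 and 0.72 TPM). Its A549 average was also lower with siRNA1 (3.80 TPM) and siRNA2 (2.15 TPM) than in the controls (7.12 TPM). CHAC1 rose with siRNA1 in MDA-MB-231 (7.4, 6.16 and 7.16 against 44.0, 55.5 and 42.9 TPM). GPX1, the main cytosolic glutathione peroxidase, stood at 102, 110.0 and 111 TPM in the A549 controls and 422, 380.4 and 408 TPM with siRNA1, and its response differed between the lines by 1.90 ± 0.11.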

How the data were processed

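Total RNA libraries of A549 and MDA-MB-231 cells, 18 in all, were each deposited as 1 table per library. Reads were aligned to hg19 and quantified with RSEM, per the submitters' processing notes; RSEM's version, the aligner and the annotation: not given in the sources used here. Per the file headers, the authors deposited an expected count per gene (reads that fit several genes are split by estimation, so 10.2% to 11.8% of values were not whole) and TPM, which divides by transcript length and library total; the deposited FPKM were not used.

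Expected counts were rounded and tested with edgeR 4.0.16 in R 4.3.3 (TMM scaling, filterByExpr with a minimum count of 10 and a minimum total of 15, quasi-likelihood F test, Benjamini-Hochberg adjustment over all genes tested, called at an adjusted p under 0.05). The 12 A549 libraries were fitted together, the 6 MDA-MB-231 libraries together, and the 12 control and siRNA1 libraries of both lines together for the control comparison and the interaction. Standard errors are the log2 fold change over the square root of F. Per-library CPM use the scaling of each line's own fit, and levels between genes or lines are in TPM. The fitting steps were tested on simulated data. No 2 libraries of a group were identical or within counting noise (chi-square per degree of freedom 2.79 to 89.3). Alternatives were DESeq2 1.42.0, limma 3.58.1 on log2(TPM + 1) and log2(TPM + 0.1), other scalings, filters and sets of libraries, a minimum log2 fold change of 1, a replicate block and leaving out each library; leaving A549 siRNA3 replicate 3 out of all A549 comparisons was chosen after seeing the data.

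The members, lists and tests were chosen with earlier results of these data known. Values per library are given for NFE2L2 and KEAP1, for the 4 highest and 4 lowest called members of each comparison (mean log2 CPM 1 or more), and for further members chosen after their values were seen; of the further lists, up to 3 genes per comparison with the smallest adjusted p were eligible. Promoters come from RefSeq (GRCh38.p14), matched by symbol only.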

Additional observations from a re-analysis of the deposited data

Results flagged for a closer look

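For 25 members the siRNA1 effect itself differed between the lines, by the interaction term of edgeR's quasi-likelihood test with Benjamini-Hochberg adjustment over 16736 genes (27.0% of them lower and 30.8% higher in A549 than in MDA-MB-231). Each value is the log2 fold change in A549 minus that in MDA-MB-231, over 3 libraries in each of 4 groups. Among regulators it was -0.684 for NFE2L2 and -0.789 for MAFG. Among quinone, haem and stress genes it was -0.388 for NQO1, -2.766 for HMOX1, -0.788 for PIR and -0.967 for OSGIN1. For glutathione genes it was -2.051 for GCLC, -2.046 for GCLM, -0.644 for GSR and -1.774 for SLC7A11, and for thioredoxin genes -0.895 for TXN, -1.255 for TXNRD1, -0.993 for SRXN1 and -0.757 for PRDX1. PGD differed by -0.75, TKT by -0.31 (not called on TPM) and UGDH by -1.032. AKR1C1 differed by -0.535 (not called on TPM or when the AKR1C genes were summed), CBR3 by -1.021 and AKR1B10, with 10 to 19 expected counts in each MDA-MB-231 library, by 1.216. ALDH3A1 differed by 3.284 and EPHX1 by 0.924. The ferritin genes FTL and FTH1 differed by -0.85 and -0.838, and TRIM16L by -1.03. No group has 4 or more libraries, so single libraries were not tested as outliers.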

How the results depend on the processing

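The order of comparisons is siRNA1, siRNA2 and siRNA3 against control in A549, siRNA1 in MDA-MB-231, controls between lines, the interaction, siRNA1 against siRNA2, siRNA1 against siRNA3 and siRNA2 against siRNA3. Of the members' log2 fold changes recomputed under alternatives other than leaving out a library, 2821 kept their direction and side of the threshold. Another 110 were stronger, 54 weaker and 6 reversed. Leaving out 1 library gave 2044, 31, 54 and 1. Counts of genes and members called are not in this tally and were taken as kept if their size stayed within 1.5 times. A minimum log2 fold change of 1 cut the genes called to 4786, 3037, 3178, 1237, 7107, 4040, 2644, 3989 and 3172, and the members called higher and lower to 3 and 4, 1 and 6, 0 and 5, 4 and 2, no lower member (0) between controls, 8 lower in the interaction, then 4 and 1, 6 and 2, and 4 and 1. Members higher with siRNA2 were 8 on TPM (either added value) and 7 with only the groups compared or without siRNA3 replicate 3. Members lower in the control comparison were 2 on TPM and with only those groups, and 0 with all 18 libraries. Higher members of the interaction were 6 on TPM + 1 and 5 on TPM + 0.1, and lower members of siRNA1 against siRNA2 were 5 under upper quartile scaling and 4 on TPM. Reversed were KEAP1 (0.023) and NQO1 (0.141) with siRNA1 on TPM with either added value, and TXN between siRNA1 and siRNA3 (0.259 on TPM with either, and -0.226 to 0.200 over the libraries left out, the last without siRNA3 replicate 3). The cause was not tested.

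Leaving out 1 library gave 10666 to 12194, 8747 to 10742, 8864 to 10307, 7194 to 9337, 13229 to 13418, 9157 to 10083, 7875 to 9979, 9823 to 10910 and 8487 to 9784 genes called. Members higher ranged over 10 to 12, 3 to 7, 1 to 3, 17 to 19, 31 to 32, 3 to 3, 12 to 16, 16 to 22 and 13 to 16, and lower over 17 to 20, 17 to 18, 23 to 28, 4 to 5, 1 to 2, 22 to 23, 5 to 9, 7 to 9 and 8 to 10.

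No pairing by replicate number was seen. Same-numbered libraries correlated at -0.247 to 0.107 in their deviations, and no comparison had every value over 0.1. Such correlations, taken around averages of 3 libraries, cannot exclude that same-numbered libraries were made together. A replicate block gave members higher and lower of 11 and 17, 4 and 17, 2 and 25, 18 and 4, 31 and 1, 3 and 22, 14 and 7, 20 and 8, and 16 and 9. At 30143047 to 40328208 counts per library, GPX2 and ALDH1A1 had 1 to 9 expected counts in each MDA-MB-231 library and AKR1B10 10 to 19, which leaves their values there imprecise.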
